A study of Mus musculus with 30 samples.

Results

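The *Hox* genes of the *Hoxa*, *Hoxb*, *Hoxc* and *Hoxd* clusters were read in C2C12 cells, an established mouse line of myoblasts derived from thigh muscle. A member was a gene whose symbol stands alone against a probe set in the platform table, represented by the probe set that was brightest over all 30 arrays. This gave 33 *Hox* genes out of 18194 genes on the array, against 39 *Hox* genes in the mouse genome. The other *Hox* genes were not analysed here. The clusters held 9 measured *Hoxa*, 9 *Hoxb*, 7 *Hoxc* and 8 *Hoxd* genes.

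C2C12-pMirn378 cells carried a lentiviral vector that overexpresses Mirn378 (the microRNA miR-378), and C2C12-pMirn0 control cells carried the same vector without the microRNA. Both vectors also expressed copGFP, and each line was a population of GFP-positive cells sorted after transduction, so that the arrays of a line came from cultures of a single transduced population. Cells were sampled in growth (d0) and after 3 and 6 days in low-serum differentiation medium (d3, d6), untreated or with 300 ng/ml BMP2. The 10 groups therefore were d0, d3 untreated, d6 untreated, d3 BMP2 and d6 BMP2 in each line, each with n = 3 arrays. The microRNA itself was not read from these arrays.

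*Hox* genes encode homeodomain transcription factors. They lie in clusters, and their order along the chromosome follows their order of expression along the head-to-tail axis of the embryo, with low numbers at the anterior end and high numbers at the posterior end. Cells of the adult limb and trunk often keep the combination of *Hox* genes that their region had in the embryo, which is called positional identity. In the limbs the posterior *Hoxa* and *Hoxd* genes pattern the segments from shoulder or hip to the digits, the *Hoxc* genes with high numbers are linked to the hindlimb level, and BMP signaling acts with them in skeleton formation.

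Values are the deposited linear intensities, which the study's methods describe as RMA summaries, and this was not checked. The lowest value was 0.0561. Ratios are on the log2 scale without an offset. Detection calls were not used here, and a gene was marked dim when its mean log2 intensity over the 30 arrays lay below the median of all values, which was 6.26 (an intensity of 76.5). This limit and the choice of the brightest probe set hold intensities of different probe sets against each other. Each probe has its own response, so neither compares RNA levels between genes. The number of arrays, 3 per group, limits the precision. Over all probe sets the median SD within a group was 0.85 (log2) below that median level and 0.14 at or above it, so that the dim genes were measured with a larger error. Arrays of a group correlated at 0.986 to 0.991 over the probe sets at or above that level, which leaves out the dim genes. The median of an array ran from 68 to 82.7. All 8 myoblast and muscle markers were not dim, as were 2 of 3 measured osteoblast markers (*Sp7* and *Alpl*) and 3 of 9 measured markers of other cells (*Sox10*, *Tubb3* and *Epcam*). *Alpl* passed through its BMP2 groups, since its group means without BMP2 were 48.2 to 65.1. The leukocyte and endothelial markers *Ptprc* and *Pecam1* were dim.

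The control line and its overexpressing counterpart had a *Hoxa* and *Hoxc* pattern. Of the 33 measured genes 15 were not dim, or 45.5%, against 58.8% of all genes. All 7 measured *Hoxc* genes were among them (*Hoxc4*, *Hoxc5*, *Hoxc6*, *Hoxc8*, *Hoxc9*, *Hoxc10* and *Hoxc13*), together with 6 of 9 *Hoxa* genes (*Hoxa3*, *Hoxa5*, *Hoxa7*, *Hoxa9*, *Hoxa10* and *Hoxa11*). Of the *Hoxb* genes 2 of 9 were not dim, *Hoxb3* and *Hoxb4*. No *Hoxd* gene was. This is a description of which probe sets passed the limit, and a dim probe set does not show that its gene is silent.

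*Hoxa3*, the lowest gene above it, had a mean log2 intensity of 6.33, and *Hoxa13*, the highest gene below it, had 5.65. *Hoxa13*, which acts in the hand and foot plate, ranged from 28 to 79.2 over the 30 arrays. The highest single value of any *Hoxd* gene was 81.6, in *Hoxd8*, and *Hoxd10* to *Hoxd12* had medians of 4.06, 5.54 and 6.07. Probe sets assigned to 2 symbols, *Hoxd4* with *Hoxd3* and *Hoxb8* with *Hoxb7*, stayed low as well, the highest value among them being 65.6.

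By position in the clusters, 4 of 10 genes with the numbers 1 to 4 were not dim, 5 of 9 with 5 to 8 and 6 of 14 with 9 to 13. The posterior group held *Hoxa9*, *Hoxa10*, *Hoxa11*, *Hoxc9*, *Hoxc10* and *Hoxc13*, all of which were at or above the limit in all 10 group means. *Hoxa5*, *Hoxc4*, *Hoxc6* and *Hoxc8* were so too. *Hoxa3* was at or above it in 5 of the 10, *Hoxa7* and *Hoxb3* in 7, and *Hoxb4* and *Hoxc5* in 9.

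A few *Hox* genes were called for BMP2 against untreated cells in each line, more of them higher than lower. A gene was called in a comparison when its Benjamini-Hochberg adjusted p from limma was under 0.005 and its log2 ratio beyond 0.6 in size, the limits of the study's methods. In C2C12-pMirn0 at d3 4 of 33 *Hox* genes were called higher with BMP2 (12.1%, against 11.1% of all genes) and 0 lower (against 8.4%), with 9 at an unadjusted p under 0.05. At d6 there were 5 higher (background 10.9%) and 2 lower (background 10.5%). In C2C12-pMirn378 at d3 5 were called higher and 1 lower, where 13.3% and 9.75% of all genes were. At d6 it was 5 higher and 1 lower again, against 10.7% and 11% of all genes. These calls are against untreated cells of the same day. A rise or fall with BMP2 is meant so below, unless d0 is named. Shares over all genes include dim ones. Of the 15 *Hox* genes that are not dim, 2 and 5 were called in either direction in C2C12-pMirn0 at d3 and d6, where 30.4% and 33.2% of all genes that are not dim were, and 3 and 4 in C2C12-pMirn378 (background 35.8% and 33.2%). No excess of called *Hox* genes over the background is read from these counts. The share of all genes at an unadjusted p under 0.05 was not counted, so nothing is read from the 9. The median log2 ratio of the 33 genes was 0.22, 0.26, -0.06 and -0.09 in these comparisons, where that of all genes was 0.05, 0.08, -0.03 and -0.03. *Hoxb5*, *Hoxb6*, *Hoxc8* and *Hoxc13* were called higher in all 4. The share of all genes called in all 4 was not counted, here or for the gene lists below, so nothing is read from such counts.

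**Figure D1:**
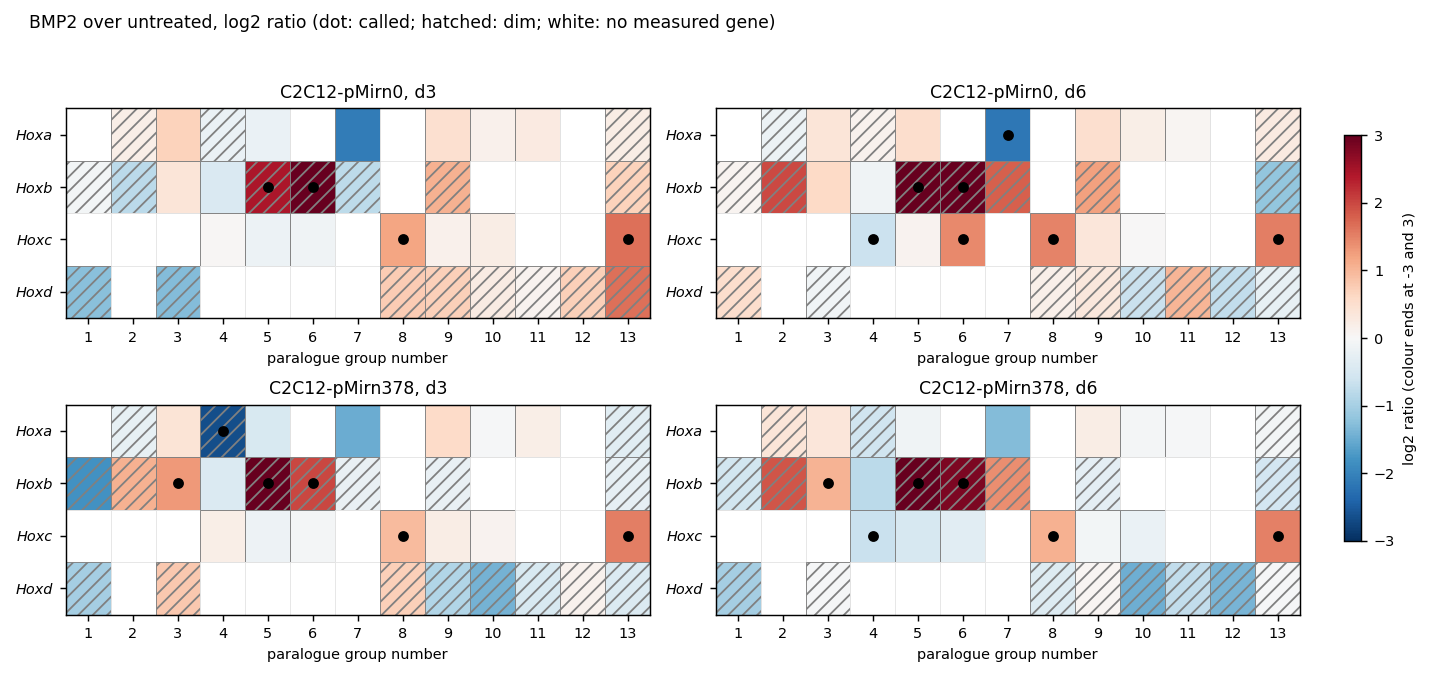
Log2 ratio of BMP2 over untreated for each measured *Hox* gene, with the cluster on the vertical axis and the paralogue group number on the horizontal axis, in each line and day. Dots mark called genes, hatching marks dim genes and white squares hold no measured gene; calls in all panels stand at *Hoxb5*, *Hoxb6*, *Hoxc8* and *Hoxc13*.

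*Hoxc13*, the most 5′ gene of its cluster and known for its role in hair and nails, had the smallest adjusted p of all *Hox* genes in each of the 4 BMP2 comparisons (probe set 1425874_at). In C2C12-pMirn0 at d3 the BMP2 arrays read 953, 978 and 923, and the untreated arrays 335, 288 and 284. At d6 they read 949, 1040 and 854 with BMP2 and 301, 309 and 379 without it. The groups were far apart at both days. The log2 ratio was 1.66 ± 0.11 (SE) at d3, with an adjusted p of 5.18e-11 by limma, and 1.53 ± 0.11 at d6, with 1.82e-10. In C2C12-pMirn378 the values at d3 were 862, 941 and 940 with BMP2 against 308, 293 and 350. At d6 they were 851, 869 and 938 against 294, 324 and 314. No array with BMP2 overlapped an array without it. The ratios were 1.53 at d3 and 1.51 at d6 (fold 2.89 and 2.85), and the interval of the difference between the lines in BMP2 effect ran from -0.46 to 0.21 at d3 and from -0.35 to 0.32 at d6.

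*Hoxc8* is a gene of the trunk whose protein binds the BMP-activated Smad proteins. It was at 312, 298 and 238 in untreated C2C12-pMirn0 cells at d3 and at 597, 701 and 632 with BMP2 (1452412_at). At d6 the untreated arrays were at 157, 179 and 163 and the BMP2 arrays at 517, 435 and 452. All BMP2 arrays lay above all untreated arrays of the same day. The log2 ratios were 1.19 (adjusted p by limma = 1.74e-07) and 1.49 (4.69e-09), with an SE of 0.13 in each. In C2C12-pMirn378 the values at d3 were 247, 309 and 242 without BMP2 and 442, 547 and 549 with it. At d6 they were 185, 227 and 241 without it and 423, 406 and 535 with it. The groups again did not overlap, and the ratios were 0.95 and 1.06 (adjusted p = 4.03e-06 and 8.98e-07 by limma). Both calls in this line were lost with only the compared groups in the fit.

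*Hoxb5*, which patterns the shoulder region, and *Hoxb6*, a marker of lateral plate mesoderm in the embryo, are neighbors in the *Hoxb* cluster. Both were dim over all arrays but had higher values with BMP2. For *Hoxb5* (1418415_at) the arrays of C2C12-pMirn0 read 6.96, 10.9 and 3.53 untreated and 27.9, 39.8 and 39.4 with BMP2 at d3. At d6 they read 1.94, 1.79 and 4.29 against 99.9, 82.4 and 101. Every BMP2 array was above every untreated array, and the d6 BMP2 mean of 94.5 was above the limit for dim genes. The log2 ratios were 2.45 ± 0.49 (SE; adjusted p by limma = 0.000323) and 5.26 ± 0.49 (7.55e-09).

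In C2C12-pMirn378 *Hoxb5* read 2.08, 3.65 and 2.71 untreated and 99.4, 59.7 and 75.8 with BMP2 at d3. At d6 it read 3.31, 6.65 and 1.56 against 58, 84.7 and 83.9. The groups did not overlap, and the ratios were 4.80 and 4.52 (adjusted p by limma = 2.93e-08 and 8.44e-08). The size of these ratios rests on untreated values near the bottom of the scale. With all values under 50 set to 50 they became 0 and 0.91 in C2C12-pMirn0 and 0.62 and 0.57 in C2C12-pMirn378, and the calls at d3 in the former and d6 in the latter were lost.

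*Hoxb6* (1451660_a_at) read 8.57, 17.7 and 9.64 in untreated C2C12-pMirn0 cells at d3 and 90.2, 100.1 and 79.3 with BMP2. At d6 it read 2.87, 5.83 and 9.88 against 171, 96.7 and 154. The BMP2 groups were above the limit for dim genes in their mean and did not overlap with the untreated groups. The log2 ratios were 2.98 and 4.64 (adjusted p by limma = 1.11e-05 and 1.41e-08), each with an SE of 0.45. In C2C12-pMirn378 it read 9.99, 34.1 and 34 against 112, 80.5 and 82.5 at d3. At d6 it read 18.8, 16.5 and 19.7 against 106, 143 and 145. The ratios were 2.00 and 2.83 (adjusted p by limma = 0.000942 and 1.96e-05). Values under 50 set to 50 gave 0.84, 1.45, 0.86 and 1.38 in the order given, and all 4 calls were kept. The call at d3 in C2C12-pMirn378 was lost without untreated replicate 1 or without BMP2 replicate 1, where the ratio ranged from 1.41 to 2.3 over the arrays left out.

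**Figure D2:**
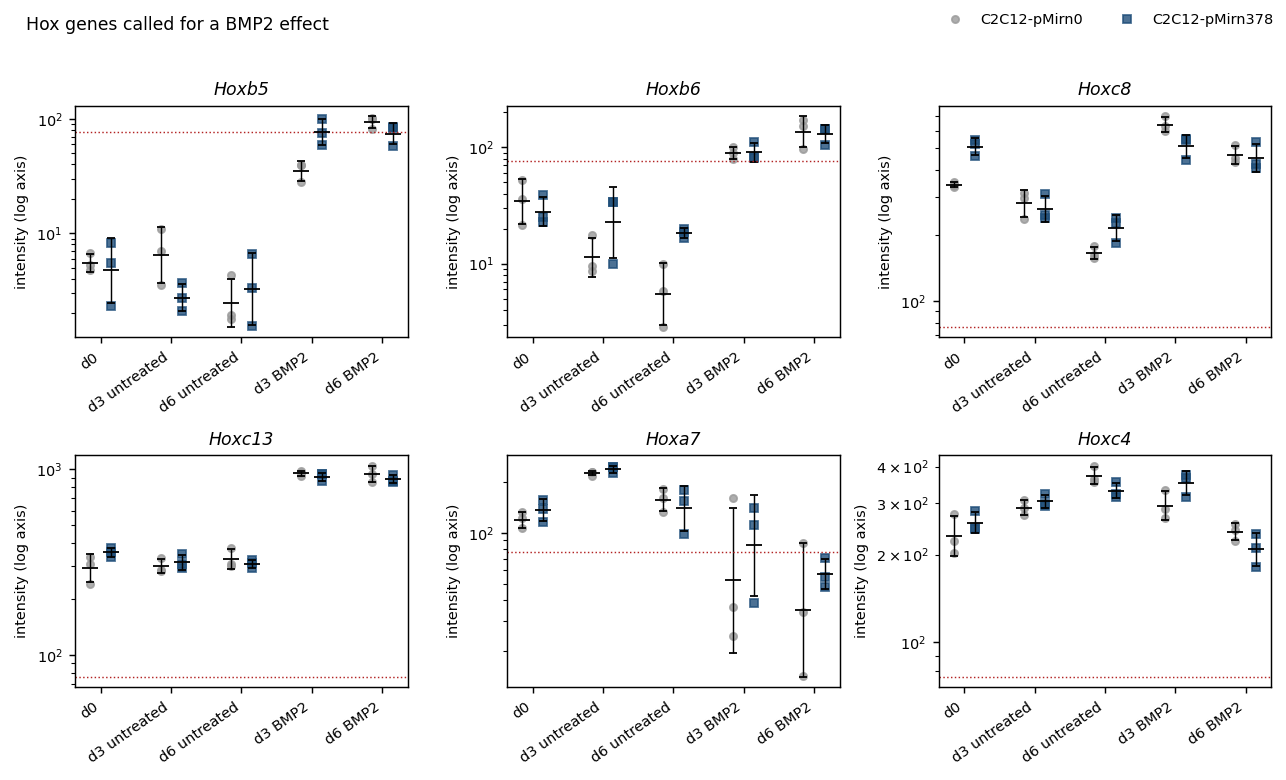
Intensity on a log axis of 6 *Hox* genes in each array, by group and line; black dashes are means of the log2 values, error bars their SD (n = 3), and the dotted line is the limit for dim genes at 76.5. *Hoxc13* reads 851 to 1040 in the BMP2 arrays and 242 to 379 in all others, while *Hoxa7* spreads widely with BMP2.

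*Hoxb3*, a gene of the hindbrain and pharyngeal region, rose with BMP2 in C2C12-pMirn378 (1456229_at). At d3 it read 44.5, 73.5 and 98.1 untreated and 137, 191 and 186 with BMP2. At d6 it read 60.2, 50.8 and 71.3 against 106, 129 and 138. The groups did not overlap, and the ratios were 1.30 (adjusted p by limma = 5.1e-05) and 1.04 (0.000689). In C2C12-pMirn0 the ratios were 0.38 (adjusted p = 0.24 by limma) and 0.60 (0.0423), which did not pass. The interaction did not pass either, at 0.93 with an interval from 0.27 to 1.58 at d3. The second, dimmer probe set of *Hoxb3* had 0.87 and 0.74 in C2C12-pMirn378, with adjusted p of 0.364 and 0.454, and the call was lost at both days with the mean of its probe sets. At d6 it was also lost without untreated replicate 2 or BMP2 replicate 3, where the lowest ratio over the arrays left out was 0.91.

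*Hoxc6*, a gene of the thoracic region, was called with BMP2 in C2C12-pMirn0 at d6 alone. Its probe set 1427362_x_at read 122, 89.8 and 124 untreated and 315, 297 and 298 with BMP2, a ratio of 1.45 ± 0.27 (SE; adjusted p by limma = 0.000129). In C2C12-pMirn378 at d6 it read 177, 223 and 194 untreated and 118, 153 and 212 with BMP2, and the groups overlapped. The ratio there was -0.33 (adjusted p = 0.397 by limma). The difference between the lines in this BMP2 effect was -1.79, with an interval from -2.57 to -1.00 and an adjusted p by limma of 0.00683, which misses the limit. In the other probe sets of *Hoxc6* this difference was -0.46 in 1427361_at (adjusted p by limma = 0.543) and 0.48 in 1427454_at (0.852). In 1427362_x_at it passed under 4 alternatives of the processing, and without BMP2 replicate 3 of C2C12-pMirn378 at d6 (-2.01, adjusted p by limma = 0.00388). The suffix _x_at marks probes that may also match other transcripts, and the other 2 probe sets of *Hoxc6* differed from each other. The ratio in C2C12-pMirn0 at d6 was 0.84 in 1427361_at (adjusted p by limma = 0.00462) and -0.99 in 1427454_at (0.203), and with their mean *Hoxc6* was at 0.43 and was not called.

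The genes called lower with BMP2 were *Hoxa7*, *Hoxa4* and *Hoxc4*. *Hoxa7* and *Hoxc4* are the called genes for which a RefSeq promoter was at hand, and *Hoxa9* is added because its ratios had the smallest error of the named *Hox* genes. The windows hold the 250 bases before the gene start on build GRCm38.p6, read 5′ to 3′ on the strand of the gene, and whether they overlap another transcript of the cluster was not examined. Capitals mark CANNTG (the E-box bound by myogenic factors) and ATTA (the core of homeodomain sites, also written TAAT on the other strand), and GGCGCC, a GC-rich Smad site, was searched too on both strands.

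Hoxa7, chr6:52218574-52218823, minus strand: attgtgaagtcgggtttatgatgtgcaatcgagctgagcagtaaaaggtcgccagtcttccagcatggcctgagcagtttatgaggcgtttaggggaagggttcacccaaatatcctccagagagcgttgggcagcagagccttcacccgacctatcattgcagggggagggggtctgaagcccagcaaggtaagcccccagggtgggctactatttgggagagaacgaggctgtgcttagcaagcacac

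Hoxc4, chr15:103034145-103034394, plus strand: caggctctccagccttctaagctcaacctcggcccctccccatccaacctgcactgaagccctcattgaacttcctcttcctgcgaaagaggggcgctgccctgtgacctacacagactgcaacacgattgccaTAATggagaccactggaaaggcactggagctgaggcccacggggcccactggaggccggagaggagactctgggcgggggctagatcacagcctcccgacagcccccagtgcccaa

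Hoxa9, chr6:52227371-52227620, minus strand: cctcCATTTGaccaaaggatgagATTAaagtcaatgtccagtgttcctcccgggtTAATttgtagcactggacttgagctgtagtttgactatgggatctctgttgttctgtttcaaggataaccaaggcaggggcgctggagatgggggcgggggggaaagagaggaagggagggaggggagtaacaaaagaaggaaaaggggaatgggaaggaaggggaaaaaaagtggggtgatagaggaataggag

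The window of *Hoxa7* held none of these letters, that of *Hoxc4* held 1 ATTA and that of *Hoxa9* held 1 E-box and 2 ATTA. Of 32851 windows of all genes, 66.2% held an E-box, 54.9% ATTA and 9.59% GGCGCC. Of 21 *Hox* windows, of 19 genes, 15 held an E-box, 16 ATTA and 5 GGCGCC. Such matches are a description of the letters and not of binding.

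*Hoxa7* is a trunk gene of the *Hoxa* cluster (1449499_at). In C2C12-pMirn0 at d6 it read 132, 180 and 160 untreated and 14.4, 34.2 and 87.5 with BMP2. At d3 it read 229, 230 and 217 untreated and 160, 36.4 and 24.7 with BMP2. All BMP2 arrays lay below all untreated arrays of their day, but they spread widely. The ratio at d6 was -2.16 ± 0.57 (SE; adjusted p by limma = 0.00435) and was called. At d3 it was -2.10 (0.00599) and just missed the limit. The d6 call was lost in 5 of the 6 fits without 1 array and kept without BMP2 replicate 3, with ratios from -2.82 to -1.51. In C2C12-pMirn378 the ratios were -1.48 (adjusted p by limma = 0.0483) and -1.29 (0.0922), and the interval of the difference between the lines ran from -1.05 to 2.29 at d3 and from -0.80 to 2.54 at d6.

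*Hoxc4*, an anterior gene of its cluster, was lower with BMP2 than untreated at d6 in both lines (1422870_at). In C2C12-pMirn0 it read 402, 363 and 353 untreated and 254, 223 and 243 with BMP2. In C2C12-pMirn378 it read 356, 316 and 324 against 236, 182 and 211. The groups did not overlap, and the ratios were -0.64 and -0.67, each with an SE of 0.12 and adjusted p by limma of 0.000114 and 6.4e-05. Both lie just past the limit of 0.6 in size, and leaving out 1 array gave -0.68 to -0.58 in the former and -0.76 to -0.57 in the latter. The call was lost without BMP2 replicate 2 in either line and without untreated replicate 1 in C2C12-pMirn0. The untreated arrays at d6 were above those at d0 (276, 203 and 222 in C2C12-pMirn0). With BMP2 the d6 mean was 240 in C2C12-pMirn0, where the d0 mean was 233.6. In C2C12-pMirn378 it was 209.7, where the d0 mean was 257.6.

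*Hoxa4* was called lower in C2C12-pMirn378 at d3 and is dim in every group (1420226_x_at). It read 28.1, 51.8 and 21.5 untreated and 1.93, 11 and 5.66 with BMP2, a ratio of -2.67 ± 0.62 (SE; adjusted p by limma = 0.00147). With values under 50 set to 50 it was -0.02, and the call was also lost without untreated replicate 2 or BMP2 replicate 1.

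*Hoxa9*, known from blood stem cells and leukemia, passed the adjusted p but not the limit on size. In C2C12-pMirn0 it read 1570, 1650 and 1602 at d3 untreated and 2182, 2404 and 2193 with BMP2 (1455626_at). At d6 it read 1406, 1417 and 1356 against 1891, 2147 and 1913. The groups did not overlap. The log2 ratios were 0.49 and 0.51 (adjusted p by limma = 1.14e-05 and 6.3e-06) with an SE of 0.07. In C2C12-pMirn378 they were 0.57 (1.15e-06) at d3 and 0.22 (0.0221) at d6, and without BMP2 replicate 1 the former was 0.66 and was called. The second probe set of *Hoxa9* gave 0.43 and 0.41 in C2C12-pMirn0 and 0.34 and 0.14 in C2C12-pMirn378.

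The other posterior genes did not pass the limits for BMP2. *Hoxa10*, which acts in the upper limb segments and the uterus, had ratios from -0.06 to 0.20, and *Hoxa11*, which patterns the forearm and shank, from -0.03 to 0.27. *Hoxc9* had -0.08 to 0.36 and *Hoxc10*, a gene of the lumbar and hindlimb level, -0.21 to 0.22. The intervals of the 4 ratios of *Hoxc10* reached from -0.43 at the lowest to 0.45 at the highest, and those of *Hoxa11* from -0.27 to 0.50. *Hoxa3* had ratios of 0.37 to 0.70, *Hoxa5* of -0.47 to 0.52, *Hoxb4* of -0.81 to -0.13 and *Hoxc5* of -0.50 to 0.10, with no call. *Hoxa3* has 4 probe sets with a single symbol. With their mean it was called higher in C2C12-pMirn0 at d6, at 0.99 (adjusted p by limma = 0.00467), where the brightest probe set had 0.38 (0.311).

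Markers of muscle and bone moved in the same comparisons. With BMP2 at d6 the mean of *Ckm* was 113 in C2C12-pMirn0 and 110 in C2C12-pMirn378, against 9227 and 6747 untreated, and that of *Alpl* was 2191 and 5502 against 54.4 and 65.1. *Myog* went from 16650 to 1444 and from 14290 to 764. Not all markers went this way. The muscle marker *Myf5* rose from 1975 to 5642 and from 2252 to 3289. The dim bone marker *Ibsp* read 42.9 and 41.2 with BMP2 against 45.5 and 51 untreated. In bulk RNA fewer cells of a type and less RNA per cell cannot be told apart, and the part that this shift of cell type has in the *Hox* values was not tested. The summed intensity of the 9 measured markers of other cells ran from 599 to 3304 over all arrays, highest at d0, where the mean of *Tubb3* was 2524 and 2915, and in BMP2 arrays at d3 it was 688 to 852 in C2C12-pMirn0 and 1404 to 1777 in C2C12-pMirn378.

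Over the time course a gene was called when the adjusted p of d6 against d0 was under 0.005 and the mean of its d3 and d6 log2 ratios lay beyond 0.6 in size. In untreated C2C12-pMirn0 cells 0 *Hox* genes rose and 2 fell, *Hoxb6* and *Hoxc8*, where 11.4% and 11.6% of all genes did. With BMP2 3 rose, *Hoxb5*, *Hoxb6* and *Hoxc13* (background 11.5%), and 0 fell (background 10.2%). In untreated C2C12-pMirn378 cells 0 rose (background 12.7%) and 2 fell, *Hoxc8* and *Hoxc10* (background 10.9%). With BMP2 the same 3 genes as in the control line rose (background 13.2%) and *Hoxc10* fell (background 10.6%). The comparisons of a line share the d0 arrays.

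*Hoxc8* fell during myogenic differentiation in both lines. It read 333, 350 and 340 at d0 in C2C12-pMirn0 and, as given above, 157 to 179 at d6, without overlap. The mean of its d3 and d6 ratios was -0.66, with an adjusted p by limma of 1.05e-06 for d6. In C2C12-pMirn378 it read 462, 545 and 525 at d0, and its mean ratio was -1.09 (7.71e-08). With BMP2 *Hoxc8* was at 643 ± 52.7 (SD, n = 3) at d3 and 468 ± 43.2 at d6 in C2C12-pMirn0, above d0 at 341 ± 8.62, a mean ratio of 0.68 that missed the limit on adjusted p (0.0103 by limma) and passed it with the filter on dim probe sets (0.00362). In C2C12-pMirn378 it was at 513 ± 60.9 and 454 ± 70 (SD, n = 3), where d0 was at 511 ± 43.1.

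*Hoxb6* in C2C12-pMirn0 read 35.7, 52.3 and 21.4 at d0, above the untreated arrays at d3 and d6, and its mean ratio without BMP2 was -2.12 (adjusted p = 4.01e-05 by limma for d6). All these values lie under 76.5, and with values under 50 set to 50 the ratio was -0.02. In C2C12-pMirn378 the mean ratio was -0.46 (0.314). With BMP2 it was 1.69 in C2C12-pMirn0, where leaving out 1 array gave 1.35 to 2.00 and ended the call in 3 of 9 cases (without d0 replicate 3, d6 BMP2 replicate 1 or d6 BMP2 replicate 3), and 1.95 in C2C12-pMirn378. *Hoxb5* with BMP2 had mean ratios of 3.38 and 4.00, which became 0.46 and 0.59 with values under 50 set to 50, short of the limit. *Hoxc13* had 1.69 and 1.33.

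*Hoxc10* had its highest mean at d0. It read 1249, 1133 and 1374 in C2C12-pMirn378 at d0 (1439798_at). At d6 it read 769, 695 and 744 untreated and 660, 548 and 716 with BMP2. All d6 arrays were below all d0 arrays. The mean ratios of d3 and d6 were -0.67 without BMP2 and -0.72 with it, with adjusted p by limma of 4.89e-06 and 1.45e-07 for d6. In C2C12-pMirn0 it read 1151, 917 and 1063 at d0 and 749, 691 and 722 at d6 untreated. The mean ratio of -0.53 (adjusted p by limma = 0.000425) was short of the limit on size, and without d0 replicate 2 it was -0.62.

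*Hoxa9* had lower values without BMP2 as well. It read 2149, 2067 and 2051 at d0 in C2C12-pMirn0, above all untreated arrays of d3 and d6. The d6 ratio was -0.58 (adjusted p by limma = 7.51e-07) and in C2C12-pMirn378 -0.39 (0.000137), neither past the limit on size. With BMP2 the d6 ratios were -0.08 and -0.17. *Hoxc5* was at 150 ± 10.7 (SD, n = 3) at d0 and at 76 ± 20 untreated and 79.9 ± 9.87 with BMP2 at d6 in C2C12-pMirn0, with ratios of -1.01 and -0.91 at d6. Its d3 ratios of -0.10 and -0.28 kept the mean short of the limit, though with BMP2 it was called at -0.65 with median scaling. *Hoxa10* had d6 ratios of 0.30 to 0.50 in the 4 courses and was not called. The brighter of the 2 probe sets of *Hoxa5*, a gene known for lung development, had a d6 ratio of 0.38 in untreated C2C12-pMirn378 cells, whereas the other had -0.94 (adjusted p by limma = 0.00434). With BMP2 in that line the d6 ratio was 0.25 in the brighter probe set and -1.37 in the other (0.000104), where the d3 ratio was -0.90. The latter probe set was thus past the limits of a course in this line both without and with BMP2, while the brighter was past neither.

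**Figure D3:**
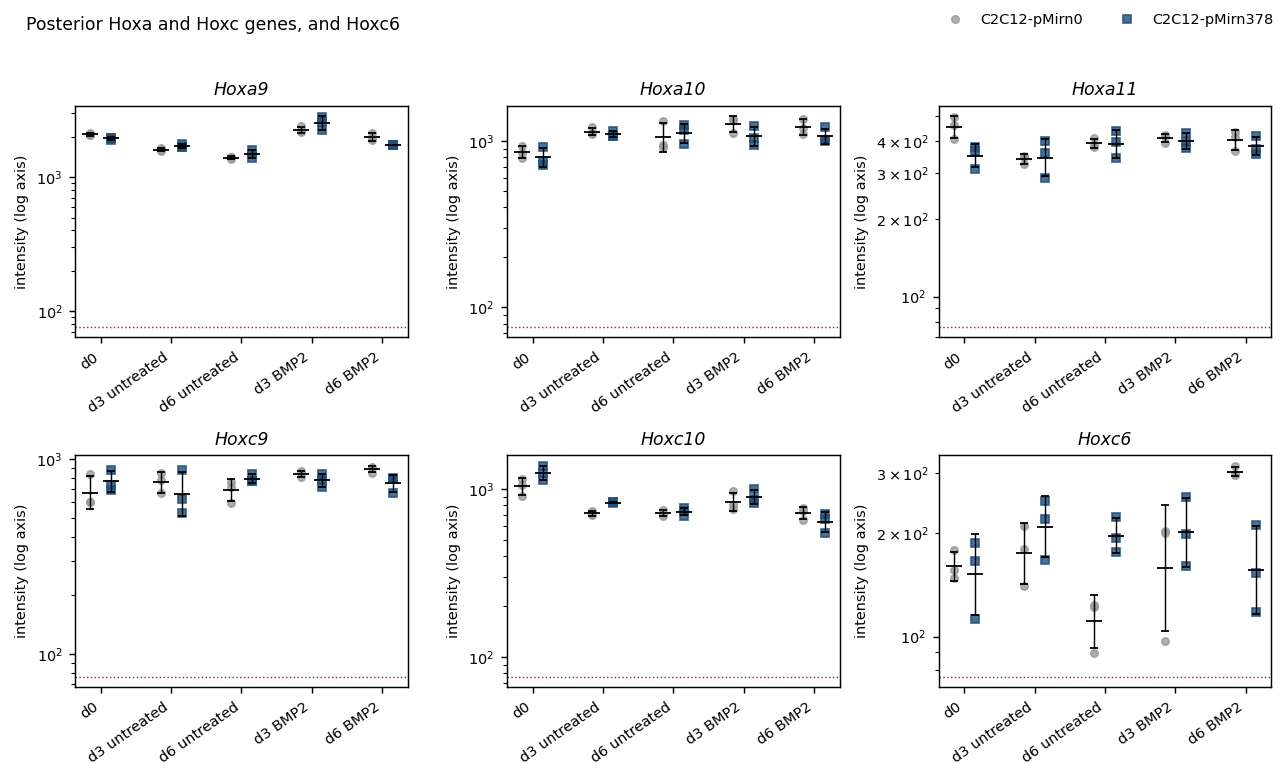
Intensity on a log axis of *Hoxa9*, *Hoxa10*, *Hoxa11*, *Hoxc9*, *Hoxc10* and *Hoxc6* in each array, by group and line; black dashes are means of the log2 values with their SD (n = 3), and the dotted line is the limit for dim genes at 76.5. The mean of *Hoxc10* is highest at d0 in both lines, and *Hoxc6* at d6 BMP2 lies at 297 or above in C2C12-pMirn0 and at 212 or below in C2C12-pMirn378.

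Overexpression of miR-378 was compared at each of the 5 conditions. No *Hox* gene was called by limma at d0 (background 0.824%), d3 untreated (background 0.72%), d6 untreated (background 0.247%), d3 BMP2 (background 4.38%) or d6 BMP2 (background 2.85%). At an unadjusted p under 0.05 there were 5, 3, 4, 8 and 4 of the 33. The difference between the lines in their BMP2 effect was not called for any *Hox* gene at d3 (background 2%) or d6 (background 2.02%), with 5 at an unadjusted p under 0.05 at each day. The share of all genes under the unadjusted limit was not counted, so nothing is read from the numbers of *Hox* genes under it. *Hoxc6* at d6 had the smallest adjusted p, given above.

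The smallest adjusted p between the lines was that of *Hoxc8* at d0, with arrays at 462, 545 and 525 in C2C12-pMirn378 and 333, 350 and 340 in C2C12-pMirn0. The groups did not overlap, and the ratio was 0.58 with an interval from 0.30 to 0.86 (adjusted p by limma = 0.0167). *Hoxc6* at d6 with BMP2 had -0.96 with an interval from -1.51 to -0.40 (0.0299). *Hoxb5* at d3 with BMP2 had 1.12 (0.168), and was called with an offset of 16 before the log2 (0.85, adjusted p by limma = 0.000413) or with values under 50 set to 50 (0.62, 0.00186). Its arrays were at 99.4, 59.7 and 75.8 in C2C12-pMirn378 and at 27.9, 39.8 and 39.4 in C2C12-pMirn0, without overlap.

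For genes that are not dim the 95% intervals give the precision of each difference, gene by gene. They rest on cultures of a single transduced population per line and hold no spread between transductions. Those of *Hoxa9* lay between -0.35 and 0.32 in all 5 conditions, those of *Hoxa10* between -0.54 and 0.37, those of *Hoxc13* between -0.33 and 0.51 and those of *Hoxc10* between -0.41 and 0.49. For *Hoxa7* they ran from -1.35 to 1.89.

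**Figure D4:**
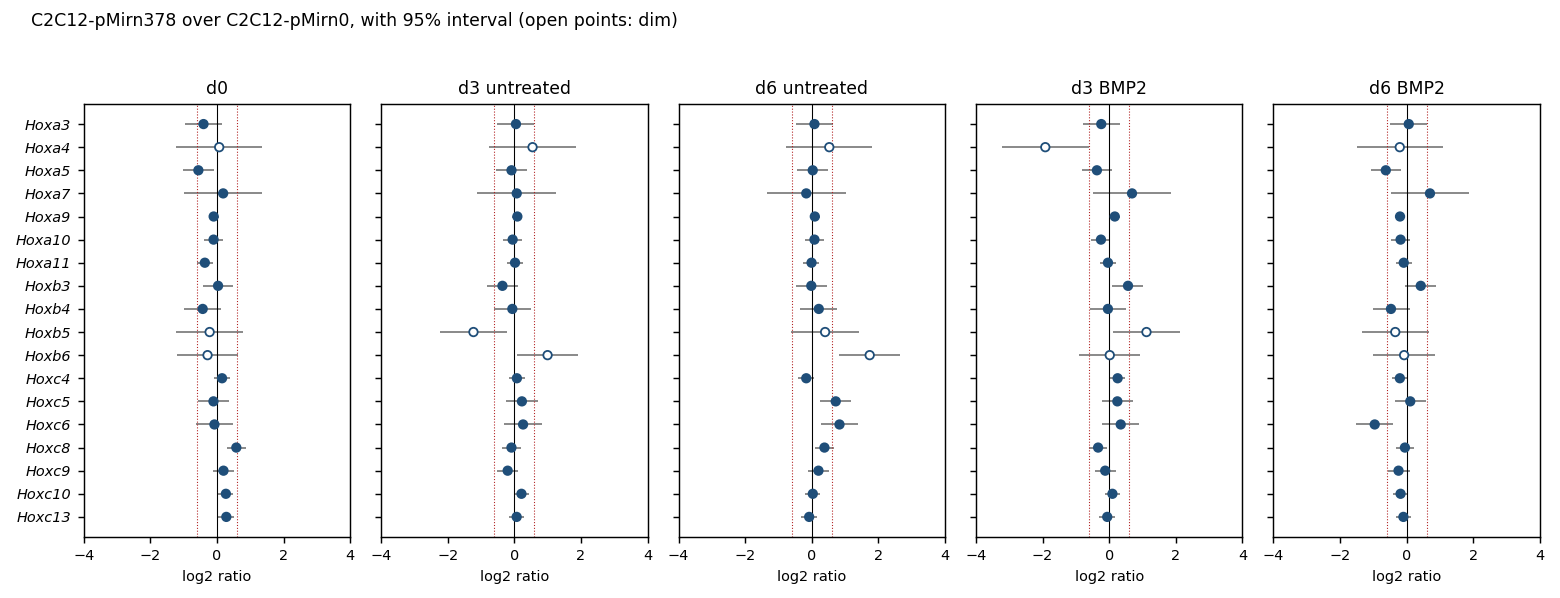
Log2 ratio of C2C12-pMirn378 over C2C12-pMirn0 in each of the 5 conditions for the 15 *Hox* genes that are not dim and the 3 dim genes called in any comparison (open points), with 95% intervals from the fit; dotted lines mark 0.6 on either side of 0. The intervals of the bright genes such as *Hoxa9* are narrow and those of *Hoxa4*, *Hoxa7*, *Hoxb5* and *Hoxb6* wide.

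Hox proteins bind DNA together with cofactors of the TALE class, the Pbx, Meis and Pknox proteins. Of 8 measured cofactors 2 were called lower with BMP2 than untreated in all 4 comparisons, *Pbx3* and *Pknox2*. In each single comparison 8.4% to 11% of all genes were called lower, and the share called lower in all 4 was not counted. The mean of *Pbx3* at d3 in C2C12-pMirn0 was 755 ± 10.2 (SD, n = 3) with BMP2 and 2140 ± 129 without it, a ratio of -1.50 (adjusted p by limma = 7.56e-14), and the other ratios were -1.35 to -1.53. *Pknox2* was at 57.3 ± 20.3 against 429 ± 81.9 (SD, n = 3) in the same groups, and its ratios ran from -2.98 to -2.70. *Meis1* and *Meis2* rose at d6 in C2C12-pMirn0, by 1.24 and 1.16. *Meis1* at d3 in that line had 0.39 (adjusted p by limma = 0.00413), short of the limit on size. *Meis2* was lower in C2C12-pMirn378 than in C2C12-pMirn0 at d3 with BMP2, at 756 ± 243 against 1572 ± 311 (SD, n = 3; ratio -1.08). The median ratio of the 8 with BMP2 was 0.10 to 0.23.

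Of the antisense and non-coding genes of the clusters 3 were measured, and *Hoxa11os*, on the strand opposite *Hoxa11*, rose with BMP2 at d3 by 0.64 in C2C12-pMirn0 and by 1.02 in C2C12-pMirn378, where *Hoxa11* had 0.27 and 0.21. *Hoxb5os* and *Hoxd3os1* were dim, with ratios of -0.15 and -0.09 in C2C12-pMirn0 at d3.

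Of 20 measured limb and regional factors 4 rose and 2 fell with BMP2 in C2C12-pMirn0 at d3 (background 11.1% higher and 8.4% lower). *Eya1*, a coactivator in muscle and organ formation, was at 3155 ± 249 against 492 ± 47.6 (SD, n = 3; ratio 2.68), and *Shox2*, a homeobox gene of the proximal limb, at 4170 ± 53.6 against 1855 ± 47.2 (ratio 1.17). *Tbx15*, a T-box gene of limb skeleton and muscle, fell by 1.96 on the log2 scale. These 3 and *Gli3* were called in the same direction in all 4 comparisons. The hindlimb genes *Pitx1* and *Tbx4* and the forelimb gene *Tbx5* were dim, and none was called with BMP2.

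The Polycomb group silences *Hox* genes through histone marks and the Trithorax group keeps them active. Of 20 Polycomb genes 2 rose and 1 fell with BMP2 in C2C12-pMirn0 at d3, no larger a share than among all genes (background 11.1% higher and 8.4% lower). *Rnf2*, a ubiquitin ligase of the complex, rose in all 4 comparisons, by 0.86 to 1.29, and *Mtf2*, a partner of the H3K27 methyltransferase complex, fell in all 4, with ratios of -0.91 to -0.60. *Cbx2* had 0.66 in C2C12-pMirn0 at d3 and was lower in C2C12-pMirn378 than in C2C12-pMirn0 at d6 with BMP2, at 236 ± 20.2 against 372 ± 33.2 (SD, n = 3; ratio -0.65), and *Phc1* had -0.58 in C2C12-pMirn0 at d3, short of the limit. Of 11 Trithorax genes and demethylases 2 rose in C2C12-pMirn0 at d3 (background 11.1%), the H3K27 demethylase *Kdm6b* (0.80) and the methyltransferase *Kmt2a* (0.73), while *Kdm6a* had 0.31 (adjusted p by limma = 0.00837). Both were called again in each line at d6, but neither was in C2C12-pMirn378 at d3, where the ratios were 0.47 and 0.56.

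Retinoic acid opens the *Hox* clusters in the embryo. Of its 16 measured pathway genes 3 rose with BMP2 in all 4 comparisons, *Aldh1a3*, *Dhrs3* and *Rarg*, and *Rdh10* fell in all 4. In each single comparison 10.7% to 13.3% of all genes were called higher and 8.4% to 11% lower. The shares called in all 4 were not counted. *Aldh1a3*, which makes retinoic acid, was at 454 ± 30.5 against 24.6 ± 10.3 (SD, n = 3) in C2C12-pMirn0 at d3, a ratio of 4.31 (adjusted p by limma = 2.97e-12). *Dhrs3*, which returns retinal to retinol, had 1.62, and *Rdh10*, which makes retinal, fell by 1.41 on the log2 scale. Between the lines *Crabp2*, a binding protein of retinoic acid, was higher in C2C12-pMirn378 at d6 untreated (0.87) and lower with BMP2 at d3 (-0.69) and d6 (-1.27). *Aldh1a3* was higher there at d6 with BMP2 (2.01), *Dhrs3* higher at d6 untreated (1.10), the receptor *Rarb* lower at d3 with BMP2 (-1.42) and the dim *Aldh1a1* lower at d6 untreated (-3.89). Of 11 ParaHox and related homeobox genes 0 were called by limma between BMP2 and untreated cells of the same day. Over the course with BMP2 in C2C12-pMirn378 the dim *Otx1* was called lower, at -1.44 (adjusted p by limma = 0.000577 for d6; background 10.6%). For BMP2 against untreated the 3 with the smallest adjusted p in C2C12-pMirn0 at d3 were *Gsx2* (2.63, adjusted p = 0.0284), *Gbx2* (1.89, 0.271) and *Evx2* (0.25, 0.438).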

How the data were processed

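Total RNA of 30 cultures of C2C12-pMirn0 and C2C12-pMirn378 cells was hybridised to Affymetrix Mouse Genome arrays. The authors deposited 1 intensity per probe set and array on the linear scale; their methods name R 2.4.1, RMA and quantile normalization, although the array medians differ. Detection calls were not used here. Each array was assigned by its label to a line, day, treatment and replicate. The 30 arrays were read as log2 without an offset and fitted with limma 3.58.1 in R 4.3.3, with the means of the 10 groups, contrasts and eBayes (prior degrees of freedom: 1.2). Benjamini-Hochberg adjustment ran over 45101 probe sets within each contrast. The study's methods give triplicate experiments of each line, so p-values measure the spread between cultures of one transduced population.

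Of the probe sets 34958 carry 1 symbol, 932 several and 9211 none. Each gene was read from the brightest probe set with a single symbol, and 11 *Hox* genes have more than 1. Named were all *Hox* genes that are not dim or were called, and from other lists the 3 members with the smallest adjusted p for BMP2 in C2C12-pMirn0 at d3 and those called between the lines; further list members named were chosen after their values were seen. The members and lists were chosen with earlier results of these data known. The fit was tested on simulated data. Promoters are from RefSeq on GRCm38.p6.

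The alternatives were a filter that left out dim probe sets, the replicate block, median scaling, quantile normalization, an offset of 16, a floor of 50, array weights, eBayes with trend and robust estimation, the compared groups alone, the mean of all probe sets of a gene, the brightest probe set by linear mean (added after seeing the data) and leaving out each array.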

Additional observations from a re-analysis of the deposited data

Results flagged for a closer look

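The dimmer *Hoxc6* probe set 1427361_at, which the comparisons did not use, differed between BMP2 and untreated C2C12-pMirn0 cells at d6, with a log2 ratio of 0.84 (means of 195 and 111), while a further probe set of the gene had -0.99. The effect of BMP2 differed between the lines in 4 genes of the related lists by the test of the interaction. They were *Crabp2* and *Aldh1a3* of 16 measured retinoic acid genes, *Cbx2* of 20 Polycomb genes and *Meis1* of 8 cofactors. The other lists had none. Of all genes 2% were called at d3 and 2.02% at d6, and no excess is read from these counts. For *Crabp2* the difference was -1.06 at d3 and -2.15 at d6, for *Aldh1a3* 1.89 at d6, for *Cbx2* -1.00 at d6 and for *Meis1* -0.76 at d6, with adjusted p by limma of 0.000357, 5.96e-08, 0.00218, 0.000658 and 0.00256. No *Hox* gene passed this test. The groups hold 3 arrays each, so single arrays were not screened as outliers.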

How the results depend on the processing

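Of 34 called *Hox* results 557 of 597 alternative values kept the call, 40 lost it and 0 turned direction. For *Hoxb5*, *Hoxb6* and *Hoxa4* these values leave out the filter on dim probe sets, which removes these genes and so their calls. The limits of these data are the dim genes and the thresholds: *Hoxb5*, *Hoxb6* and *Hoxa4* rest on intensities near the bottom of the scale, and *Hoxc4* and *Hoxc10* lie near the limit of 0.6. The counts of called *Hox* genes moved as follows. With the filter on dim probe sets the untreated course of C2C12-pMirn0 had 1 instead of 2, the BMP2 course of C2C12-pMirn378 2 instead of 4, BMP2 in C2C12-pMirn378 at d3 3 instead of 6 and the interaction 1 instead of 0, since the filter takes dim genes out of the fit. With only the compared groups in the fit the untreated course of C2C12-pMirn0 had 1, and BMP2 in C2C12-pMirn378 had 2 at d3 and 3 at d6 instead of 6 each, with fewer arrays in the fit. These lost *Hoxa4*, *Hoxb3*, *Hoxb6* and *Hoxc8* at d3 and *Hoxb3*, *Hoxc4* and *Hoxc8* at d6. In C2C12-pMirn0 BMP2 then had 3 instead of 4 at d3, without *Hoxb5*, and 5 instead of 7 at d6, without *Hoxa7* and *Hoxc4*. With values under 50 set to 50 the untreated course of C2C12-pMirn0 had 1, the line comparisons 1 instead of 0 (*Hoxb5* at d3 with BMP2) and the interaction 1. An offset of 16 gave 1 between the lines and 2 for the interaction, and eBayes with trend and robust estimation gave 1 for the interaction. For *Hoxc6* the d6 interaction was -1.79 with the filter (adjusted p by limma = 0.00189), and for *Hoxb5* at d3 it was 1.14 with the offset (0.00243).

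Leaving out 1 array gave 2 to 4 and 2 to 6 called genes in the untreated and BMP2 courses of C2C12-pMirn0, 2 to 2 and 4 to 4 in those of C2C12-pMirn378, 4 to 5 and 5 to 7 for BMP2 in C2C12-pMirn0 at d3 and d6, 5 to 6 at each day in C2C12-pMirn378, 0 to 0 between the lines and 0 to 1 for the interaction. The count of 4 came without C2C12-pMirn0 d0 replicate 2, which added *Hoxc5* and *Hoxc10*, and that of 6 without C2C12-pMirn0 d3 BMP2 replicate 1, which added *Hoxa7*, *Hoxc5* and *Hoxc6*. The interaction count of 1 was *Hoxc6* at d6, without C2C12-pMirn378 d6 BMP2 replicate 3 or without C2C12-pMirn0 d3 BMP2 replicate 1, which changes only the pooled spread at d6.

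Over probe sets that are not dim, deviations of samples with the same replicate number had a median correlation of 0.043 (from -0.173 to 0.234, with 24 of 135 pairs over 0.1). For samples with other numbers it was -0.017. A correlation this weak cannot decide whether the number pairs the samples, and the main fit does not use it. The replicate block gave 2, 3, 2 and 4 called genes in the 4 courses, 4, 6, 6 and 6 for BMP2 and 0 between the lines and for the interaction, and lost *Hoxa7* at d6 but changed no other call. Median scaling moved the median of all genes for BMP2 in C2C12-pMirn0 at d3 by -0.104, and *Hoxa7* at d3 was then called at -2.21. *Hoxa7* at d3 was also called with quantile normalization, array weights, eBayes with trend and robust estimation, the filter, the offset and the floor. Its d6 call was also lost with array weights and with the floor (-1.37, adjusted p by limma = 0.00578). The cause of the other shifts was not tested.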
